A study of Mus musculus with 4 samples.

Results

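The 10 genes described here encode surface ligands by which an activated B cell tells a T cell to respond or to hold back, Cd86 among them. They were found as the rows of both RNA tables whose symbol is Cd86, Cd80, Icosl, Cd274, Pdcd1lg2, Cd70, Tnfsf9, Tnfsf4, Cd83 or Slamf1, and all 10 were present among the 13792 genes listed. The set was drawn up with the difference of Cd86 already known, so that difference is described and supports nothing. RNA came from 2 libraries of mouse naive B cells (strain C57BL/6, widely used and inbred) infected with retrovirus, then cultured with antibodies to IgM and CD40, substitutes for antigen and for help from T cells. The RVKM-Ascl2 library is from cells given virus with Ascl2, a basic helix-loop-helix transcription factor, and the RVKM-Empty library from cells given the same vector without it. The protocols consulted do not say whether infected cells were sorted or how many mice were pooled. Each group has 1 library, so no value has a replicate error and no difference below was tested against one. The chromatin samples of the series, an Ascl2 immunoprecipitation and its input from germinal centre B cells, were not analysed here.

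CD80 and CD86 of the B7 family bind CD28 on T cells, which adds the second signal a naive T cell needs, and bind CTLA-4, which withholds it. ICOS ligand keeps T follicular helper cells engaged with B cells, whereas PD-L1 (Cd274) and PD-L2 (Pdcd1lg2) bind the inhibitory receptor PD-1. The TNF superfamily ligands CD70, Tnfsf9 and Tnfsf4 (OX40 ligand) prolong T cell responses through CD27, Tnfrsf9 and OX40. CD83 is a surface marker of activated B cells and mature dendritic cells, and SLAMF1 is a receptor that binds another copy of itself on the partner cell. Engagement of the B cell receptor or of CD40 is known to raise several of these on B cells.

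The tables hold an abundance per gene scaled for sequencing depth, with no unit named. Values under 1.2 were nearly all distinct, 2085 of 2119 with RVKM-Ascl2 and 2193 of 2218 with RVKM-Empty, whereas whole reads scaled for depth alone would repeat a few steps. The scale is therefore read as adjusted for gene length too, and orders of level between genes rest on that reading. The values summed to 763932 with RVKM-Ascl2 and 750692 with RVKM-Empty, and the number of reads behind them is unknown. Ascl2 itself stood at 29.4 with RVKM-Ascl2 and 0.0809 with RVKM-Empty, the direction its labels give. The B cell marker Cd79a, part of the B cell receptor complex, was at 492 with RVKM-Ascl2 and 665 with RVKM-Empty. A log2 ratio below is log2 of the RVKM-Ascl2 value plus 1 over the RVKM-Empty value plus 1, and it makes differences of low genes look smaller. The background is the 12283 genes that reached 1 in either library, and 2-fold means a log2 ratio from 1 upwards or from −1 downwards.

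Cd86 stood apart from the other ligand genes. Its value was 50.8 with RVKM-Ascl2 and 6.29 with RVKM-Empty, 8.07 times as high. The log2 ratio was 2.83, and 8 of the 12283 background genes had a higher one. Among genes in both libraries, 86.1% had a lower value than Cd86 with RVKM-Ascl2 and 39.8% with RVKM-Empty, which puts it in the upper part of the range in the first and below the middle in the second. For scale, the central 95% of log2 ratios ran from −0.62 to 0.57 over 3628 genes with a mean value from 20 up to 100, the range that holds Cd86. That span describes differences among genes of these libraries and is not a replicate error. In bulk RNA, a difference in the number of cells that carry a transcript and one in the amount per cell cannot be told apart.

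Of the 9 ligand genes in the background, Cd86 was at least 2-fold higher with RVKM-Ascl2 and none was at least 2-fold lower, where 1.53% and 0.716% of all background genes were. At 1.5-fold the higher ones were Cd86, Icosl and Slamf1, beside 5.01% of background genes, and none was lower, beside 4.31%. A log2 ratio above 0 was found in 6 of the 9, against 48.4% of the background, and one below 0 in 3, against 51.6%. Their median was 0.42, against −0.01. The members were chosen on this same contrast, so these shares are given for scale and nothing is read from them. Tnfsf4 did not reach 1 in either library and is the member outside the background.

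**Figure D1:**
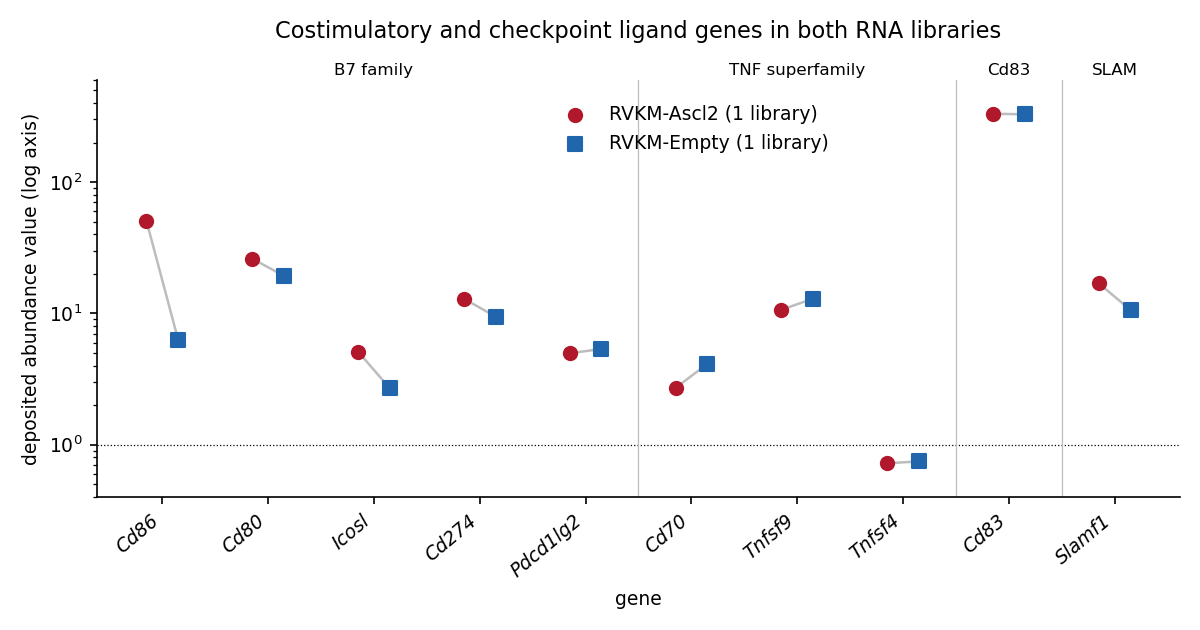
Deposited abundance of the 10 ligand genes (vertical axis, logarithmic, no unit named), with RVKM-Ascl2 as a circle at the left and RVKM-Empty as a square at the right of each gene, 1 library each, and a dotted line at a value of 1. Cd86 has the widest gap, 50.8 with RVKM-Ascl2 and 6.29 with RVKM-Empty, Cd83 is the highest gene at 331 with RVKM-Ascl2 and 329 with RVKM-Empty, and Tnfsf4 is below 1 in both libraries.

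Cd80, the other ligand of CD28 and CTLA-4, had values of 26.1 with RVKM-Ascl2 and 19.3 with RVKM-Empty, a log2 ratio of 0.42. It was higher with RVKM-Ascl2, inside the span that holds 95% of genes of its level. The order of the pair differed between the libraries. Cd86 was 1.94 times Cd80 with RVKM-Ascl2 and 0.326 times Cd80 with RVKM-Empty. Put as a share of their summed abundance, Cd86 made up 66.0% with RVKM-Ascl2 and 24.6% with RVKM-Empty. The pair summed to 76.9 with RVKM-Ascl2 and 25.6 with RVKM-Empty.

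Icosl, the ligand of ICOS, was low in both libraries, at 5.12 with RVKM-Ascl2 and 2.69 with RVKM-Empty. It was 1.90 times as high, with a log2 ratio of 0.73 that 385 background genes exceeded. The central 95% of genes with a mean value from 2 up to 5 ran from −0.82 to 0.78, so Icosl lay just inside it. Its log2 ratio was 0.90 with a pseudocount of 0.1 and 0.40 with one of 5.

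The PD-1 ligand genes had ratios of opposite sign. Cd274, which encodes PD-L1, was 12.9 with RVKM-Ascl2 and 9.45 with RVKM-Empty, a log2 ratio of 0.42. Pdcd1lg2, which encodes PD-L2, was 4.97 with RVKM-Ascl2 and 5.36 with RVKM-Empty, a log2 ratio of −0.09. The difference between their ratios has no replicate check. The PD-L1 gene was the higher of the pair in both libraries, at 2.60 times its neighbour with RVKM-Ascl2 and 1.76 times with RVKM-Empty. Over the 5 B7 family genes the values summed to 99.9 with RVKM-Ascl2 and 43.1 with RVKM-Empty, and to 49.2 with RVKM-Ascl2 and 36.8 with RVKM-Empty once Cd86 was left out.

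The TNF superfamily ligands in the background, Cd70 and Tnfsf9, had log2 ratios below 0, neither past 2-fold or 1.5-fold. Cd70, the ligand of CD27, was 2.70 with RVKM-Ascl2 and 4.12 with RVKM-Empty, a log2 ratio of −0.47. Tnfsf9, which binds the costimulatory receptor Tnfrsf9, was 10.7 with RVKM-Ascl2 and 12.9 with RVKM-Empty, a log2 ratio of −0.26. Tnfsf4 was 0.722 with RVKM-Ascl2 and 0.746 with RVKM-Empty, too low for its difference to be read. Cd70 lay within the −0.82 to 0.78 that covers 95% of genes at its level, and Tnfsf9 within the −0.67 to 0.64 for genes from 5 up to 20. Summed over the 3 genes, the abundance was 14.1 with RVKM-Ascl2 and 17.8 with RVKM-Empty.

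Cd83 was by far the highest of the ligand genes and hardly differed, at 331 with RVKM-Ascl2 and 329 with RVKM-Empty. Its log2 ratio of 0.01 lay near the middle of the background, with 53.5% of genes below it. CD83 protein opposes the ubiquitin ligase MARCH1, which removes CD86 and MHC class II from the cell surface. The transcript of that ligase, March1, was 8.69 with RVKM-Ascl2 and 7.84 with RVKM-Empty, a log2 ratio of 0.13. Relative to Cd86, Cd83 was 6.53 times as abundant with RVKM-Ascl2 and 52.2 times with RVKM-Empty.

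Slamf1 had the next highest ratio after Cd86 and Icosl. It stood at 16.9 with RVKM-Ascl2 and 10.6 with RVKM-Empty, 1.60 times as high, a log2 ratio of 0.63 that 537 background genes exceeded. That value was at the edge of the span from −0.67 to 0.64 for its level. Its neighbours in the SLAM gene cluster of chromosome 1 differed less. Cd48, 61.9 kb from it, was 147 with RVKM-Ascl2 and 129 with RVKM-Empty, and Cd84, 38.5 kb from it, was 25.2 with RVKM-Ascl2 and 21.2 with RVKM-Empty, for log2 ratios of 0.18 and 0.24.

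In order of level, RVKM-Ascl2 cells ran Cd83, Cd86, Cd80, Slamf1, Cd274, Tnfsf9, Icosl, Pdcd1lg2, Cd70 and Tnfsf4. The order in RVKM-Empty cells was Cd83, Cd80, Tnfsf9, Slamf1, Cd274, Cd86, Pdcd1lg2, Cd70, Icosl and Tnfsf4. Cd86 was in place 2 with RVKM-Ascl2 and place 6 with RVKM-Empty, while Tnfsf9 was in place 6 with RVKM-Ascl2 and place 3 with RVKM-Empty. Cd83, Slamf1, Cd274 and Tnfsf4 held the same place in both. With 1 library each, no spread says which neighbours in these orders differ.

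**Figure D2:**
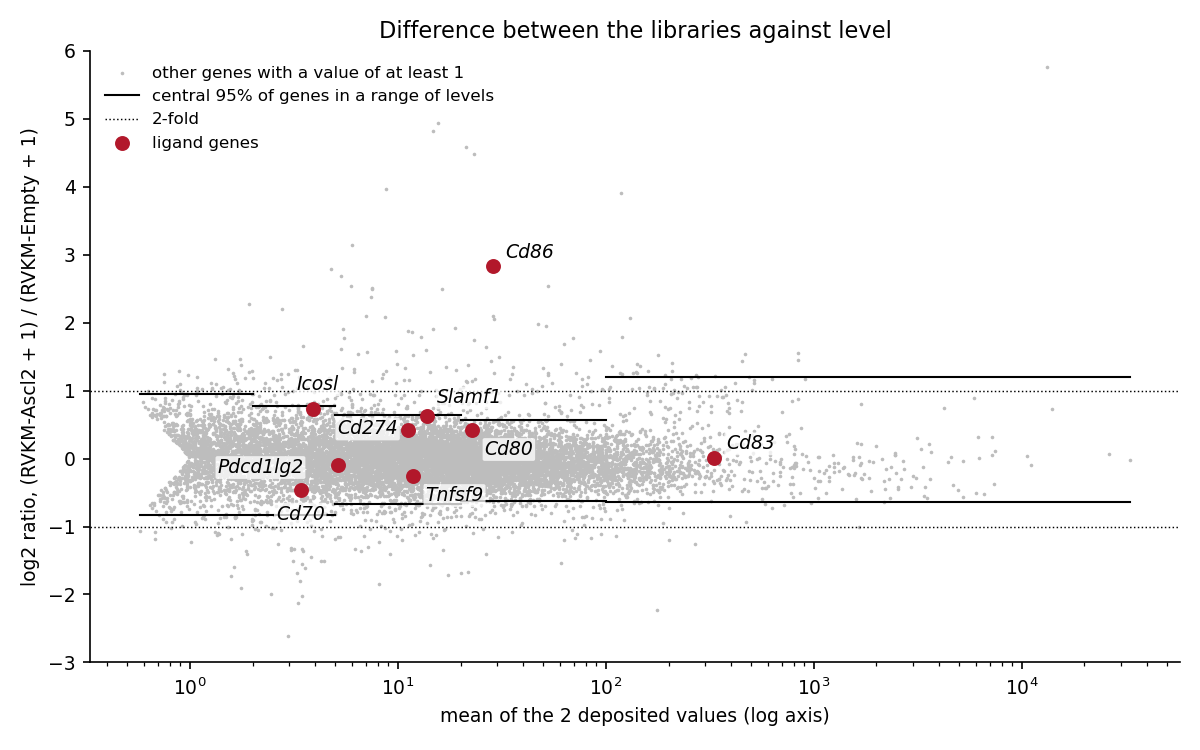
Log2 ratio of RVKM-Ascl2 over RVKM-Empty (vertical axis) against the mean of both deposited values (horizontal axis, logarithmic) for the 12283 background genes in grey, with the 9 ligand genes among them in red, solid lines around the central 95% of genes in each range of level and dotted lines at 2-fold. Cd86 lies at 2.83, far outside the lines for its level, and the other 8 lie within theirs.

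Motif letters were read in the promoter windows that RefSeq annotation on GRCm38.p6 gave for 5 of the 10 genes (Cd80, Icosl, Cd274, Pdcd1lg2 and Slamf1). Each window holds 250 bases before and 50 from a transcription start. The windows of Cd80 and Cd274 lie wholly inside the annotated genes, whose lower coordinates are 38457430 and 29362107, so their starts are internal ones. Those of Icosl, Pdcd1lg2 and Slamf1 lie at the lower end of the gene. Ascl2, like other basic helix-loop-helix factors, is known to bind the E-box, CANNTG, and CAGCTG is a form of it that Ascl factors favour. Both patterns read the same on either strand, and CAGCTG matches are counted within CANNTG. Shown are the windows of Icosl and Slamf1, which had the highest ratios among these 5 genes, and of the adjacent PD-1 ligand genes, whose ratios differed in sign. Capitals mark CANNTG.
Icosl, chr10:78069118-78069417, plus strand: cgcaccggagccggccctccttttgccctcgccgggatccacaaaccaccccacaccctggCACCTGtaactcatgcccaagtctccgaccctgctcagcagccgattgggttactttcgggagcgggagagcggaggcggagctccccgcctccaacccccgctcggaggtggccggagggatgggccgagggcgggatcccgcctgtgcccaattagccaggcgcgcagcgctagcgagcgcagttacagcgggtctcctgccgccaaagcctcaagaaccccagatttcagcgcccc
Slamf1, chr1:171766882-171767181, plus strand: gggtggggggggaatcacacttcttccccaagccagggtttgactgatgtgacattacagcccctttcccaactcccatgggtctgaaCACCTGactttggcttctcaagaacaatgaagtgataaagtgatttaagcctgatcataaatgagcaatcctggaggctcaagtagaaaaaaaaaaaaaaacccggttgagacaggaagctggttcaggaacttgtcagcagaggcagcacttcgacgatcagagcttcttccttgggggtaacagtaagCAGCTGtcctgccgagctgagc
Cd274, chr19:29367188-29367487, plus strand: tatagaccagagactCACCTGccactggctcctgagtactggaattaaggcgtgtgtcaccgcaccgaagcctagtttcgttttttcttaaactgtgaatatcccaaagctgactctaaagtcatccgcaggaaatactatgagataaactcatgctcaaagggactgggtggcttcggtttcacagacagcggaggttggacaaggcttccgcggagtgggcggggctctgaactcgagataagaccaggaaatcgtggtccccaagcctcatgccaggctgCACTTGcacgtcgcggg
Pdcd1lg2, chr19:29410669-29410968, plus strand: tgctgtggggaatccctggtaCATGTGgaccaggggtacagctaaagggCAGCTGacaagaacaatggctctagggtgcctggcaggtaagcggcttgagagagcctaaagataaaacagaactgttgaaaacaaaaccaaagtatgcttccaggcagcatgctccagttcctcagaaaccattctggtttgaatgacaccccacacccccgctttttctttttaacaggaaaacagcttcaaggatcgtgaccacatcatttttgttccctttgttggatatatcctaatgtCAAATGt

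All 5 windows held at least 1 CANNTG, as did 72.3% of all 32851 windows of this length and 63.5% of the 10995 windows of background genes. The matches numbered 3 in Pdcd1lg2, 2 each in Cd274 and Slamf1 and 1 each in Cd80 and Icosl. CAGCTG was present in Cd80 (from position −134 counted from its internal start), Pdcd1lg2 (from −201) and Slamf1 (from 28). It was found in 16.3% of all windows and 14.5% of those of background genes. The log2 ratios were −0.09 for Pdcd1lg2, 0.42 for Cd274, 0.63 for Slamf1, 0.42 for Cd80 and 0.73 for Icosl. Whether matches go with ratios was not tested, and Cd86 had no window. A match is a string of letters and not a binding site.

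On the chromosome, some of the ligand genes lie near one another. Cd86 (chr16:36568956-36666158) and Cd80 (chr16:38457430-38495958) share chromosome 16 with 1791 kb between them. Cd274 (chr19:29362107-29388095) and Pdcd1lg2 (chr19:29410919-29472927) are 22.8 kb apart with no coding gene annotated between. Tnfsf9 (chr17:57105287-57107758) and Cd70 (chr17:57145997-57149777) are 38.2 kb apart, next to Tnfsf14, another TNF superfamily ligand gene at 0.552 with RVKM-Ascl2 and 0.851 with RVKM-Empty. Icosl (chr10:78069368-78079525), Cd83 (chr13:43785112-43803133), Slamf1 (chr1:171767131-171801184) and Tnfsf4 (chr1:161395438-161418206) stand apart from these pairs. No measured gene directly beside Cd86 or Cd80 was past 2-fold, where 1.53% of all background genes were higher and 0.716% lower. The measured gene nearest to Cd86, Ildr1, was 0.889 with RVKM-Ascl2 and 0.983 with RVKM-Empty, so it is outside the background and could not be called. The nearest background gene on that side, Slc15a2, had a log2 ratio of 1.91, and the nearest on the other side, Ccdc58, had 0.29. The genes flanking Cd80, Adprh and Timmdc1, had log2 ratios of −0.26 and −0.09.

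Within 2.5 Mb of Cd86 lay 29 background genes besides Cd86 and Cd80. Of these 1 was at least 2-fold higher with RVKM-Ascl2 and none was lower, beside 1.53% and 0.716% of all background genes. Among the 29 ratios, 19 lay above 0, against 48.4% of the background. Their median was 0.17. The gene past 2-fold was Slc15a2, which encodes a peptide transporter and lies between Cd86 and Cd80. It was 9.19 with RVKM-Ascl2 and 1.72 with RVKM-Empty, a log2 ratio of 1.91. It was singled out after its value was seen.

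**Figure D3:**
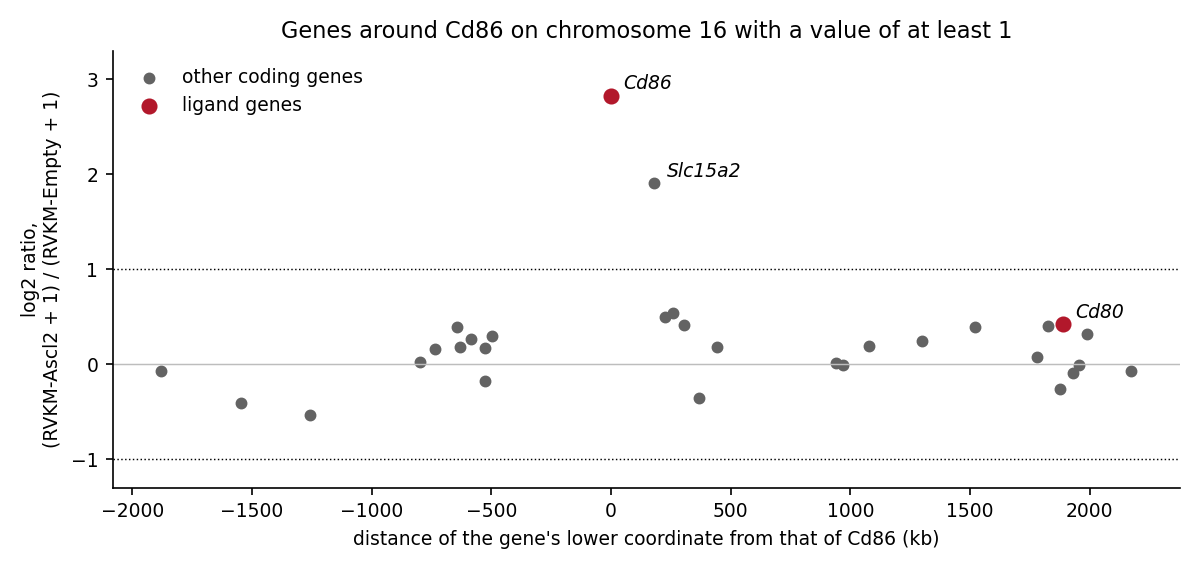
Log2 ratio of RVKM-Ascl2 over RVKM-Empty (vertical axis) of background genes within 2.5 Mb of Cd86 on chromosome 16, by the distance of each gene's lower coordinate from that of Cd86 (horizontal axis, kb), with Cd86 and Cd80 in red and dotted lines at 2-fold. Slc15a2, at 1.91, is the other gene above 2-fold, and Cd80 lies at 0.42.

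The genes most like Cd86 were taken as the 5 with the shortest Euclidean distance from it in log2 of the value plus 1 over the 2 libraries. They were Mef2b (distance 0.63), Cr2 (0.74), Ets1 (0.77), Rgs13 (0.95) and Slirp (1.03). Mef2b, a transcription factor gene active in germinal centre B cells, was 47.3 with RVKM-Ascl2 and 10.2 with RVKM-Empty. Cr2, a complement receptor gene of B cells, was 30.5 with RVKM-Ascl2 and 7.35 with RVKM-Empty, and Ets1, an ETS family transcription factor gene, was 36.2 with RVKM-Ascl2 and 10.04 with RVKM-Empty. Slirp, which encodes a mitochondrial RNA-binding protein, was 31.8 with RVKM-Ascl2 and 11.7 with RVKM-Empty. All 5 had lower ratios than Cd86. Rgs13, a regulator of G protein signalling, was 28.3 with RVKM-Ascl2 and 4.21 with RVKM-Empty. It belongs to 7 genes given with over 6 significant digits, none of them a ligand gene, and how their values were made is not known. A likeness over 2 libraries rests on level and ratio alone.

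No other member of the same families in the background was past 2-fold, where 1.53% of all background genes were higher and 0.716% lower. At such shares none is the usual outcome for lists this short, so nothing is read from it. The median log2 ratio of the whole background was −0.01. Of 8 further B7 and butyrophilin family genes, 2 were measured, Vsir at 8.12 with RVKM-Ascl2 and 7.77 with RVKM-Empty and Btnl2 at 1.19 with RVKM-Ascl2 and 1.17 with RVKM-Empty, a median log2 ratio of 0.03. Of 15 further TNF superfamily ligand genes, 4 were in the background and none was past 2-fold in either direction, with a median log2 ratio of −0.18. Ltb, which encodes lymphotoxin beta, was 75.6 with RVKM-Ascl2 and 99.5 with RVKM-Empty, and Tnf was 6.31 with RVKM-Ascl2 and 7.66 with RVKM-Empty. Of 11 further SLAM family genes and their adaptors, 7 were in the background. A ratio above 0 was found in 6, beside 48.4% of all background genes. None of these SLAM genes was past 2-fold, and their median was 0.18. The largest ratio there was 0.78, in Slamf9, at 4.45 with RVKM-Ascl2 and 2.18 with RVKM-Empty, while Slamf6 was 110 with RVKM-Ascl2 and 130 with RVKM-Empty and Slamf7 was 200.4 with RVKM-Ascl2 and 174 with RVKM-Empty.

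The receptors for these ligands belong mostly to T cells and were low. Ctla4, the inhibitory receptor for CD80 and CD86, was 5.98 with RVKM-Ascl2 and 4.02 with RVKM-Empty, a log2 ratio of 0.48. Cd28 was 0.751 with RVKM-Ascl2 and 0.734 with RVKM-Empty, and Pdcd1, the PD-1 gene, was 0.652 with RVKM-Ascl2 and 0.624 with RVKM-Empty. Cd27 was 1.36 with RVKM-Ascl2 and 1.14 with RVKM-Empty, and Tnfrsf4, the OX40 gene, was 2.04 with RVKM-Ascl2 and 2.21 with RVKM-Empty. Rgmb, which encodes a further binding partner of PD-L2, was 0.673 with RVKM-Ascl2 and 0.836 with RVKM-Empty. Of 8 receptor genes, 3 were in the background with a median log2 ratio of 0.14. None was past 2-fold, beside 1.53% of background genes higher and 0.716% lower.

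Genes that act on the ligand proteins after synthesis, with 2 MHC class II pathway genes on the same list, numbered 7 in the background. None was past 2-fold in either direction, beside 1.53% of background genes higher and 0.716% lower. The median log2 ratio of the list was −0.23. Cmtm6, whose product holds PD-L1 at the surface, was 27.3 with RVKM-Ascl2 and 24.1 with RVKM-Empty, and the related Cmtm4 was 2.15 with RVKM-Ascl2 and 2.22 with RVKM-Empty. Stub1, a ubiquitin ligase gene, was 21.5 with RVKM-Ascl2 and 26.8 with RVKM-Empty, and March8, a relative of March1, was 1.66 with RVKM-Ascl2 and 2.12 with RVKM-Empty. The class II genes had the largest ratios there. Cd74, the invariant chain gene, was 4168 with RVKM-Ascl2 and 5742 with RVKM-Empty, and H2-DMa, part of the peptide-exchange complex, was 498 with RVKM-Ascl2 and 675 with RVKM-Empty, for log2 ratios of −0.46 and −0.44.

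Genes known to induce the ligands, 14 in all, had ratios below 0 in 10 and above 0 in 4, beside 51.6% and 48.4% of the background. None was past 2-fold, beside 1.53% of background genes higher and 0.716% lower. The median of these 14 genes was −0.16. Cd40, which receives the T cell help signal, was 55.8 with RVKM-Ascl2 and 51.2 with RVKM-Empty. The NF-kB subunit genes Nfkb2, Rela and Relb had log2 ratios of −0.26, −0.30 and −0.32, and Rel had 0.04. Batf, an AP-1 family factor gene, had the lowest ratio, at 115 with RVKM-Ascl2 and 179 with RVKM-Empty (−0.64), and Spi1, the PU.1 gene, was 15.4 with RVKM-Ascl2 and 21.5 with RVKM-Empty (−0.45). Irf4, by contrast, was 108 with RVKM-Ascl2 and 88.3 with RVKM-Empty, a log2 ratio of 0.29.

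Other genes of contact between B and T cells and other activation markers also held no member past 2-fold. The background shares were 1.53% higher and 0.716% lower. Of 16 contact genes, 9 had a ratio above 0, beside 48.4% of the background, and their median was 0.05. The largest was 0.68, in Cd24a, a costimulatory glycoprotein gene at 159 with RVKM-Ascl2 and 99.1 with RVKM-Empty, and H2-Ab1, a class II chain, was 1156 with RVKM-Ascl2 and 1573 with RVKM-Empty. Btla, an inhibitory receptor gene, was 105 with RVKM-Ascl2 and 82.5 with RVKM-Empty. Of 10 activation surface markers, 4 had a ratio above 0, beside the same 48.4%, and their median was −0.06. The early activation marker Cd69 was 95.5 with RVKM-Ascl2 and 101 with RVKM-Empty, and Fas was 85.7 with RVKM-Ascl2 and 82.2 with RVKM-Empty, whereas Cd38 was 23.6 with RVKM-Ascl2 and 15.4 with RVKM-Empty.

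**Figure D4:**
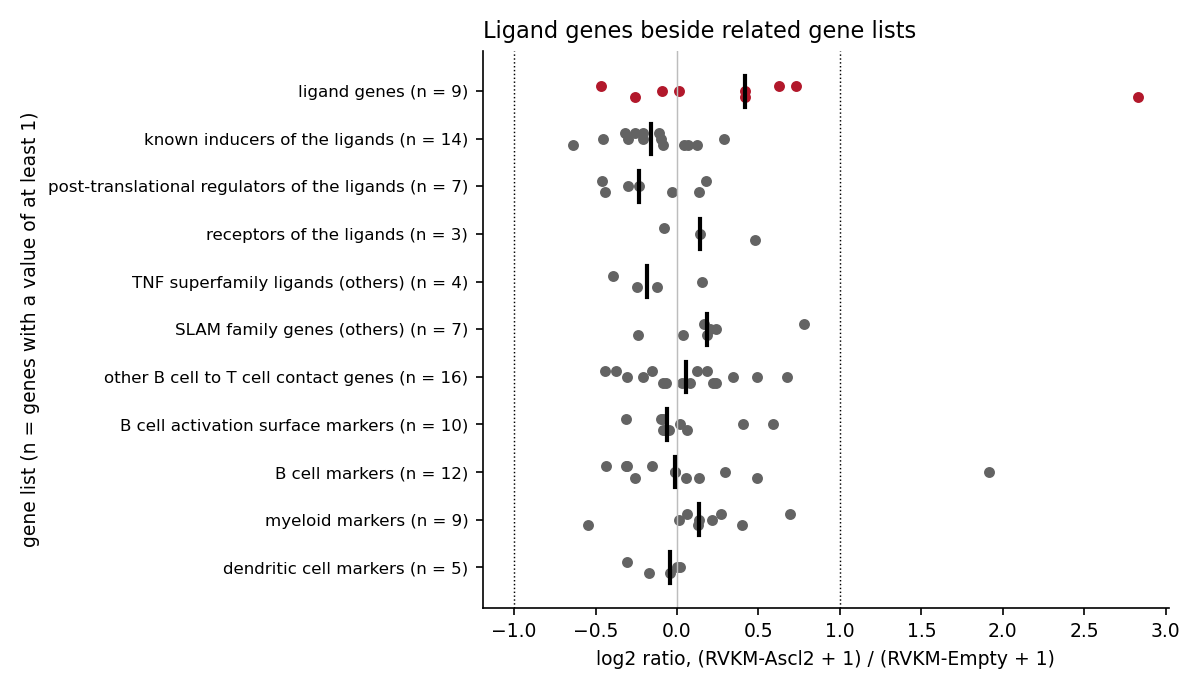
Log2 ratio of RVKM-Ascl2 over RVKM-Empty (horizontal axis) of each background gene in the ligand set (red) and in 10 related gene lists (grey), with a black bar at each list's median and dotted lines at 2-fold. Cd86 at 2.83 and the B cell marker Cr2 at 1.91 lie beyond 2-fold, and the list medians lie between −0.23 and 0.42.

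Dendritic cells and macrophages also carry these ligands, so their markers were read beside Cd86. Of 15 myeloid markers, 9 were in the background, with a median of 0.14. A ratio above 0 was found in 8, beside 48.4% of all background genes. None was past 2-fold, beside 1.53% higher and 0.716% lower. The summed level of the myeloid markers was 285 with RVKM-Ascl2 and 269.6 with RVKM-Empty, mostly Ctss, which B cells express too. Lyz2 was 21.4 with RVKM-Ascl2 and 15.98 with RVKM-Empty, Fcer1g was 9.83 with RVKM-Ascl2 and 5.71 with RVKM-Empty. Cd68 was 10.8 with RVKM-Ascl2 and 16.2 with RVKM-Empty, Csf1r was 1.06 with RVKM-Ascl2 and 0.780 with RVKM-Empty and Cd14 was 1.63 with RVKM-Ascl2 and 1.18 with RVKM-Empty. Of 12 dendritic cell markers, 5 were in the background with a median of −0.04, and their summed level was 116 with RVKM-Ascl2 and 124 with RVKM-Empty. The largest part of that sum was Ccr7, at 58.7 with RVKM-Ascl2 and 60.5 with RVKM-Empty, so the sum is not read as a measure of dendritic cells. Itgax, Clec9a and Xcr1 were among the listed markers that had no value here. None of the 13792 genes listed was at 0 in either library, so being above 0 does not in itself set a marker apart from other genes. The part of other cells in the Cd86 value was not tested. Of 12 B cell markers, all in the background, Cr2 was past 2-fold on the higher side, at 1.91, beside 1.53% of background genes. The median of the B cell markers was −0.01. Of 16 T cell markers, 4 were in the background with a median of −0.08. Their summed level of 386 with RVKM-Ascl2 and 436 with RVKM-Empty was mostly Thy1, at 346 with RVKM-Ascl2 and 395 with RVKM-Empty. Cd3d, Cd3e, Cd3g, Cd4, Cd8a and Trac were among those that had no value here, so that sum is not read as a measure of T cells. Of 8 natural killer cell markers, 2 were in the background with a median of 0.12, and the list summed to 5.63 with RVKM-Ascl2 and 4.40 with RVKM-Empty.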

How the data were processed

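Each RNA library has 1 deposited table of 13792 Ensembl genes. The authors deposited a signal for each gene, an abundance already scaled for depth. Its unit's name, the quantifier, the annotation and strandedness are not given in the sources used. The submitters' processing notes name Trim Galore, Bowtie2, Picard, MACS2 and the build mm10, without versions or roles. Groups follow the sample titles. Depth is unknown, so no counting interval is given.

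Log2 ratios were computed with a pseudocount of 1, over the 12283 genes that reached 1 in either library, in Python 3.11.15 with pandas 2.3.3 and numpy 2.4.6. With values that are not counts and 1 library per group, no test was possible. As deposited, 20 symbols were written as dates, and these genes were matched by Ensembl identifier through the reference names, which covered 13752 identifiers. Coordinates and promoter windows are RefSeq's on GRCm38.p6, the assembly called mm10, matched by symbol. The members and the 13 gene lists were chosen with earlier results of these data known. Genes named are all members and their receptors, regulators and neighbours, the 4 largest ratios of each list and any past 2-fold, and the 5 genes nearest to Cd86. A few further list members (Btla, Cd40, Cd69, Csf1r, Ctss, Fas, Irf4, Nfkb2 and Rel) and Slc15a2 were named after their values were seen. The call rule and the span correction were tested on simulated data, the call rule with planted changes larger than 2-fold and counting noise at an assumed depth. With the real depth unknown and no replicates, that simulation cannot show how often the call is wrong in these libraries. Alternatives were a pseudocount of 0.1 or 5, filtering at 5 or not at all, 3 rescalings of RVKM-Ascl2, thresholds of 1.5-fold and 3-fold, and removal of the running median over 501 genes ordered by genomic span.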

Additional observations from a re-analysis of the deposited data

How the results depend on the processing

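For the 9 ligand genes in the background, no ratio changed sign in 10 alternatives, except that a filter of 5 left out Cd70 and gave no value. Cd86 stayed past the threshold in each, between 2.30 with a pseudocount of 5 and 2.99 with one of 0.1. A pseudocount of 5 moved Icosl to 0.40 and Cd70 to −0.24, which its construction does to low genes. At 1.5-fold, Icosl (0.73) and Slamf1 (0.63) were also called higher. A filter of 5 moved the median of the receptor list to 0.48, with Ctla4 alone left, and no filter moved that of natural killer cell markers to 0.36. The number of genes at least 2-fold higher with RVKM-Ascl2 (188) was 370 with a pseudocount of 0.1, 103 with one of 5 and 100 with the span trend removed, and those lower (88) were 220, 20 and 42. The numbers past 1.5-fold were 615 and 530, and past 3-fold 41 and 15. The span trend could be computed for 11106 genes, without variable segments, which accounts for part of those lower counts. List medians near 0 changed sign in 6 cases, for B cell markers, activation markers and dendritic cell markers with a rescaling and for T cell markers with the span trend removed. The sums without immunoglobulin genes and Pcdh15 shifted all log2 ratios by up to 0.09. Tnfsf4 was not followed through the alternatives. The number of reads is unknown, so what depth limits cannot be stated. No paired analysis was possible because each group has 1 library.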
